A study of Homo sapiens with 72 samples.

Results

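The wells described here are the 3 wells of U2OS cells that received pyrazolanthrone at 10000 nM, of 72 wells profiled by population RNA-seq in the series. They were chosen by their titles, which give the compound code AML108, the dose and the replicate number, and were set against all 18 wells titled DMSO. U2OS is a human osteosarcoma cell line. The other 51 wells received lower doses of pyrazolanthrone (1000 nM or 100 nM) or any of the 3 doses of miglitol, nilotinib, MK-2206, triptolide or homoharringtonine, each dose in 3 wells. All wells were grown in 24-well plates in serum-containing medium and collected 12 h after treatment, and the control wells were treated with DMSO, the solvent, with no compound. The labels do not say whether the wells came from separate cultures, so the p-values below measure the spread between these wells, which may be technical. They do not say which plate held which well either, so a difference between plates cannot be told apart from a difference between groups, doses included.

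Pyrazolanthrone is an ATP-competitive inhibitor of the c-Jun N-terminal kinases (JNK), which are encoded by MAPK8, MAPK9 and MAPK10. The study's compound list gives MAP2K4, a kinase upstream of JNK, as its target. In the JNK cascade, MAP3K kinases activate MAP2K4 and MAP2K7, these phosphorylate JNK, and JNK phosphorylates JUN and its partners in the AP-1 transcription factor, which drives its own gene and many immediate early genes. A second system is described below at length. When amino acids are short or the endoplasmic reticulum is under load, kinases phosphorylate the initiation factor eIF2alpha, bulk translation falls and translation of ATF4 rises. ATF4 then induces genes for amino acid synthesis, amino acid import, tRNA charging and stress regulation, in part through composite C/EBP-ATF elements. The comparison asks which genes differed in RNA level between the treated and the DMSO wells. In bulk RNA, a change in the make-up of the cells and a change of RNA per cell cannot be told apart.

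The 3 treated wells held 31.9 mil to 51.0 mil expected counts. The DMSO wells held 18.4 mil to 56.4 mil, apart from DMSO replicate 10, which held 0.460 mil. That well stood apart in content too: it had the highest value of the 18 DMSO wells for 11 of the 32 immediate early and MAPK feedback genes tested, with EGR1 at 619 CPM against 42.4 to 94.8 CPM in the other DMSO wells. It was kept, and leaving it out gave 115 genes higher and 115 lower in place of the 109 and 105 below. The share of counts on 13 mitochondrial mRNAs was 0.278% to 0.321% in the treated wells and 0.138% to 0.367% in the DMSO wells (two-sided exact permutation test, n = 3 and 18, p = 0.141, adjusted over 5 well measures 0.353). The cells carried mesenchymal markers, with VIM at a mean of 1962 TPM in the treated and 1842 TPM in the DMSO wells, SPARC at 1724 TPM and 2144 TPM, and COL1A1 at 341 TPM and 456 TPM. Of the bone genes, SPP1, ALPL and RUNX2 had DMSO means of 11.2, 4.08 and 3.91 TPM, SP7 and IBSP were below 0.1 TPM in every one of these wells, and BGLAP had a DMSO mean of 0.461 TPM. COL1A2 had a DMSO mean of 0.0889 TPM, and TWIST1 was listed at 0. Of 6 leukocyte, 5 endothelial and 5 neural markers, only CD68 and RBFOX3 reached a mean of 1 TPM. Epithelial markers summed to 6.09 to 7.67 TPM in the treated wells and 9.10 to 16.8 TPM in the DMSO wells, with 2 of 7 markers at a mean of 1 TPM or more. These were CLDN4, at 3.37 TPM in the treated and 7.82 TPM in the DMSO wells, and EPCAM, at 2.55 TPM and 2.35 TPM. The cause of the lower sum was not tested.

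Pyrazolanthrone at 10000 nM changed a limited set of genes, most of them by less than 2-fold. Of 18494 genes tested with edgeR's quasi-likelihood test, 619 (3.35%) rose and 796 (4.3%) fell at an adjusted p under 0.05, together 7.65%. With a log2(Fold Change) above 1 or below -1 as well, 109 genes (0.589%) were higher and 105 (0.568%) lower, together 1.16%. At an unadjusted p under 0.05 there were 4272 of the 18494 genes, both directions together, which is the background for the unadjusted list counts below. The share of all genes called by DESeq2 at any fold is not given here, so its list counts lack such a background. The median log2(Fold Change) over all genes was -0.003. All 3 treated wells lay above every DMSO well for 533 genes (2.88%) and below every DMSO well for 445 genes (2.41%). The number of genes lower rested on the treated wells: it was 69 without pyrazolanthrone replicate 1 and 52 without replicate 2. In the text, "rose" and "fell" stand for an adjusted p (padj) under 0.05 in this comparison, and levels are CPM, read counts scaled to the size of the library after TMM normalization.

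**Figure D1:**
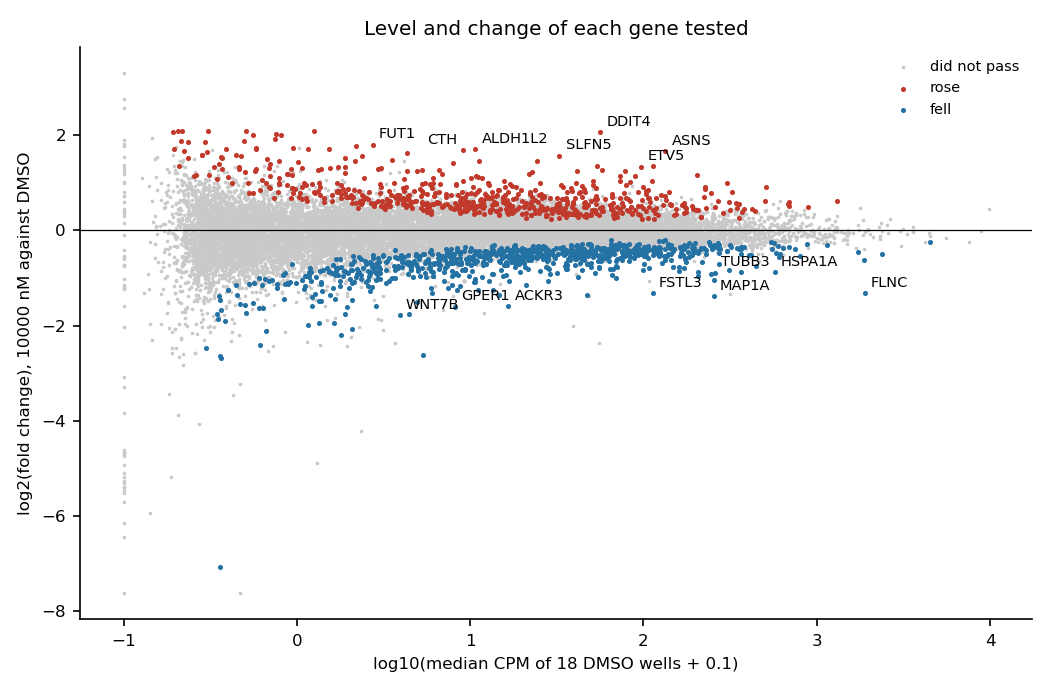
Each point is 1 of 18494 genes, placed by log10 of its median CPM in the 18 DMSO wells plus 0.1 and by its log2(Fold Change), 10000 nM against DMSO. Red points rose and blue points fell at padj under 0.05; DDIT4 stands at 2.06, MAP1A at -1.38 and FLNC, at a DMSO median of 1896 CPM, at -1.31.

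The gene with the largest rise among those with at least 5 CPM was DDIT4, a stress-induced inhibitor of mTORC1 signalling on chromosome 10 (GRCh38, chr10:72273919-72276036). It read 229, 240.4 and 242 CPM in the treated wells, against a lowest, median and highest of 41.9, 56.2 and 70.3 CPM in the DMSO wells. The log2(Fold Change) was 2.06 ± 0.09 (SE, padj = 1.28e-13), or 4.16-fold, and the groups did not overlap. FUT1, a fucosyltransferase that makes the H blood group antigen, followed at chr19:48748011-48755390. It read 11.2, 8.16 and 9.43 CPM against 0, 2.64 and 3.76 CPM (1.80 ± 0.16, padj = 1.14e-07). Other large rises were those of G0S2, an inhibitor of triglyceride breakdown (1.77), the cysteine protease inhibitor CSTA (1.63), SLFN5 (1.57), the hedgehog-binding protein HHIP (1.57) and the osteoclast-associated receptor OSCAR (1.47). SLFN5 was the most abundant of these, at 89.4, 101 and 93.1 CPM against 24.4, 32.6 and 39.4 CPM (padj = 2.39e-09). G0S2 also gave 1.02 at 100 nM (padj = 4.47e-03) and 0.71 at 1000 nM (padj = 0.506), and was higher at 10000 nM than at 1000 nM by 1.04 (padj = 1.68e-02). Its mean was 7.58 CPM here and 12.7 CPM with nilotinib at 10000 nM. ALDH1L2, CTH and ASNS complete the 10 protein-coding genes with the largest rises, and all 3 belong to the amino acid stress genes.

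Read as 25 gene lists, the results were led by the ATF4 and amino acid stress genes. Of 28 such genes tested, 25 rose and none fell, with a median log2(Fold Change) of 0.92, against 3.35% and 4.3% of all genes and a median of -0.003. The unadjusted p under 0.05 and DESeq2 also gave 25 rises and 0 falls. For 21 of the 28, all 3 treated wells lay above every DMSO well, against 2.88% of all genes. The list next in order, immediate early and MAPK feedback genes, had 11 rises and 2 falls of 32. The lists of interferon response and WNT target genes had 0 rises and 0 falls of 22 and of 12 with edgeR, 1 rise and 1 fall and 2 rises and 3 falls at an unadjusted p under 0.05, and 0 rises and 1 fall each with DESeq2.

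**Figure D2:**
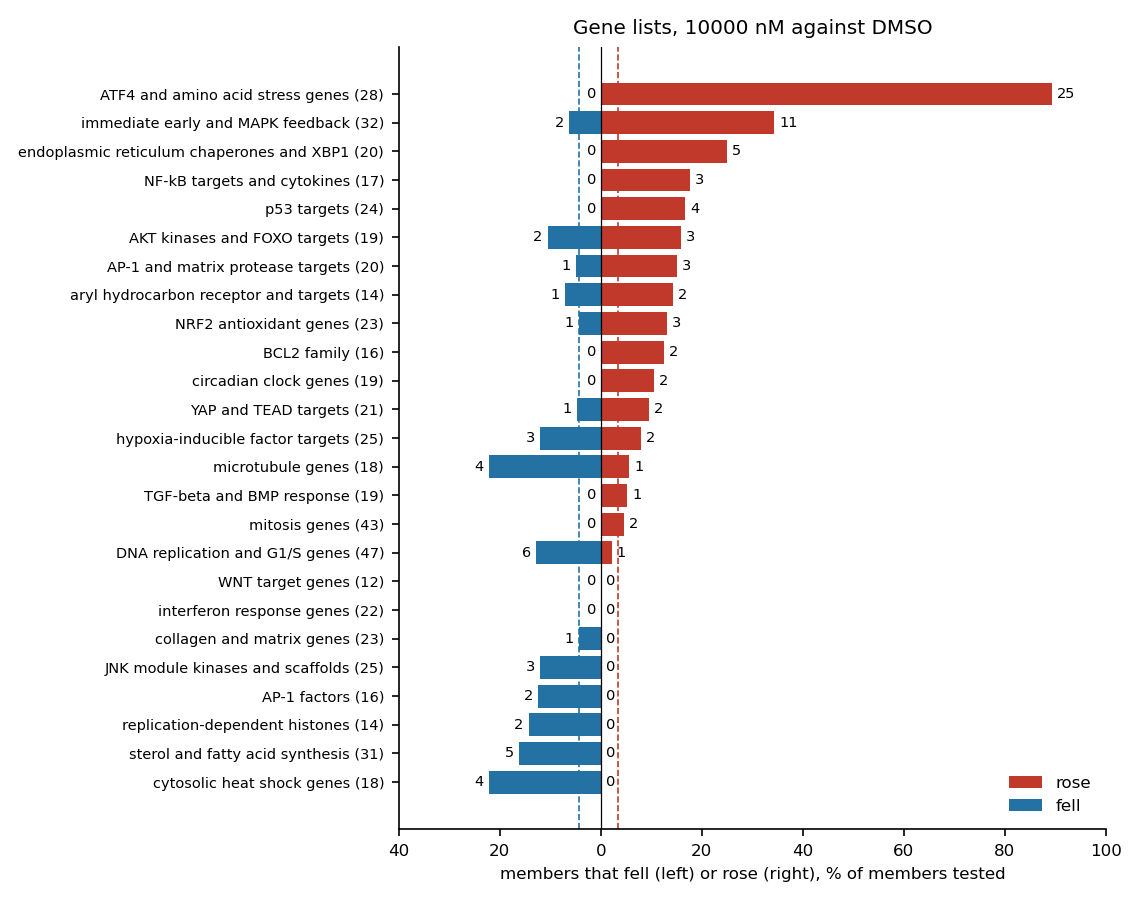
Bars give the share of tested members of each list that rose (red, right) or fell (blue, left) at 10000 nM against DMSO, with the number of members at the bar's end and the number tested in brackets. Dashed lines mark the shares over all genes, 3.35% and 4.3%; the amino acid stress genes reached 25 of 28.

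The regulators of the amino acid stress pathway are described first. ATF4 itself read 879.9, 1013 and 1072 CPM in the treated wells, against 497, 686 and 784 CPM in the DMSO wells (0.55 ± 0.11, padj = 1.41e-03). Every treated well was above every DMSO well. CEBPB, a partner of ATF4, rose by a log2(Fold Change) of 0.66 (padj = 1.79e-02), and DDIT3, which encodes the stress factor CHOP, by 0.50 (padj = 2.97e-02); the treated and DMSO wells overlapped for both. ATF5, a related factor, did not pass (-0.10, padj = 0.618).

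The promoters of 23 of these 28 genes were found in a RefSeq table of windows from 250 bases before to 50 bases after each start (GRCh38.p14). The motifs TGATGNAA, TGANTCA and GCGTG were searched on both strands: TGATGNAA is a core of the C/EBP-ATF element, chosen after the values were seen, TGANTCA the AP-1 element, and GCGTG the core of the dioxin response element. TGATGNAA was held by 5 of the 23 genes (AARS1, ASNS, CHAC1, GARS1 and SLC3A2), or 21.7%, against 2.95% of the 12375 tested genes with a window. GCGTG was held by 19 of 23 (82.6%, against 56.8%), and TGANTCA by 3 of 23 (13.04%, against 7.54%). Among the 63 named genes with a window 5 held TGATGNAA (7.94%), which were ASNS, FUT1, HERPUD1, HRK and DLGAP1-AS2. The 250 bases before the start are shown for 5 genes that hold the motif and rose, 5′ to 3′ on the gene's strand, with the match in capitals on either strand. The matches overlapped neither of the other motifs. A match describes the letters only and does not show that a factor binds there.
ASNS (chr7:97872409-97872658, minus strand): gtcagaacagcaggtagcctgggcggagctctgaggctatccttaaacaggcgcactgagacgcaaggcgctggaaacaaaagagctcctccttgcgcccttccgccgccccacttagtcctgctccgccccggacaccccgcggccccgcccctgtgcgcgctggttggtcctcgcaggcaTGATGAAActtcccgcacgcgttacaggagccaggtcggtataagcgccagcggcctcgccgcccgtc
CHAC1 (chr15:40953221-40953470, plus strand): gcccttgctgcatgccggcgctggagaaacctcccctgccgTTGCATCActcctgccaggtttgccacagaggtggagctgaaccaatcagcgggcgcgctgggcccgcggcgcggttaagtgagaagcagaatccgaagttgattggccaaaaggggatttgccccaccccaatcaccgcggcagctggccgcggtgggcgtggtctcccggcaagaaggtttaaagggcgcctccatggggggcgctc
AARS1 (chr16:70289507-70289756, minus strand): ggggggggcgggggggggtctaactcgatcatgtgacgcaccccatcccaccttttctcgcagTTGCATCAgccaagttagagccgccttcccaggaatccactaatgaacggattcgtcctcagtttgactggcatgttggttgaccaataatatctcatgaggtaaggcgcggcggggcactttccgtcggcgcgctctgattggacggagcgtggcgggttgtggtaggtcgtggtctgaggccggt
HERPUD1 (chr16:56931892-56932141, plus strand): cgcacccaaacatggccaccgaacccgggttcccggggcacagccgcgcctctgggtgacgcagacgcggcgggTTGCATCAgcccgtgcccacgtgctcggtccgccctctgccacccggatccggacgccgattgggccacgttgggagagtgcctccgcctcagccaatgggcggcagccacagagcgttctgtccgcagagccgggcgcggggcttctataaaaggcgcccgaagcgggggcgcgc
FUT1 (chr19:48755359-48755608, minus strand): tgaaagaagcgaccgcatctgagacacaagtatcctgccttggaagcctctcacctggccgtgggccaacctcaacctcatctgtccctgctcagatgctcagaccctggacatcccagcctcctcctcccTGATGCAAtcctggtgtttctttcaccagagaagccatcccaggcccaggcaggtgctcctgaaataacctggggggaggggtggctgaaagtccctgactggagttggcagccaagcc

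The capitals begin 68 bases before the start in ASNS, 209 in CHAC1, 187 in AARS1, 176 in HERPUD1 and 119 in FUT1.

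Enzymes of amino acid synthesis were among the largest rises. ASNS, which makes asparagine, read 483, 494 and 394 CPM against 68.4, 133 and 214 CPM in the DMSO wells (1.66 ± 0.21, padj = 1.49e-05). All treated wells were above the highest DMSO well. In the serine pathway, PHGDH, PSAT1 and PSPH catalyse the steps from a glycolysis intermediate to serine. PSAT1 read 197, 188 and 203 CPM against 78.3, 88.8 and 100.4 CPM (1.15 ± 0.07, padj = 2.49e-10), and PSPH rose by 1.05 (padj = 3.56e-07). PHGDH rose by 0.44 (padj = 1.08e-02), and its groups overlapped, with the highest DMSO well at 486 CPM and the lowest treated well at 464 CPM. Enzymes of folate metabolism rose too, with ALDH1L2 at 1.71 ± 0.17 (padj = 7.09e-07), MTHFD2 at 0.99 (padj = 2.71e-06) and SHMT2 at 0.59 (padj = 3.47e-04). ALDH1L2 read 36.2, 33.2 and 34.5 CPM, above the 6.90 to 15.8 CPM of the DMSO wells. CTH and CBS make cysteine from homocysteine. CTH read 30.5, 30.6 and 31.3 CPM against 1.95, 9.03 and 13.7 CPM (1.69 ± 0.17, padj = 7.10e-07), and CBS rose by 0.68 (padj = 4.08e-04). The genome build holds a near-identical copy of CBS, so its counts are uncertain.

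Genes of amino acid import and tRNA charging rose as well. SLC7A11, the light chain of the cystine importer, read 339.6, 289 and 266 CPM against 80.0, 114 and 191 CPM (1.34 ± 0.18, padj = 2.27e-05). SLC7A5 and SLC3A2, which together form the importer of large neutral amino acids, rose by 0.62 (padj = 1.81e-04) and 0.61 (padj = 2.72e-05). The glycyl-, tryptophanyl- and alanyl-tRNA synthetases GARS1, WARS1 and AARS1 rose by 0.92, 0.65 and 0.48, and the treated wells lay above every DMSO well for all 3. The glutamine transporter SLC38A2 and the tRNA exporter XPOT did not pass, with values of 0.63 (padj = 0.237) and 0.50 (padj = 0.353). SLC38A2 read 324, 215 and 160.4 CPM in the treated wells and 89.5 to 373 CPM in the DMSO wells, a wide spread within both groups.

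Feedback regulators and effectors of the pathway come next. TRIB3, a pseudokinase that restrains ATF4, read 160.0, 196 and 206 CPM against 64.6, 78.0 and 92.8 CPM (1.25 ± 0.09, padj = 7.24e-09). CHAC1, which degrades glutathione, read 92.1, 94.6 and 92.1 CPM against 15.6, 41.0 and 49.4 CPM (1.25 ± 0.13, padj = 1.09e-06). In both genes every treated well was above every DMSO well. SESN2, a leucine sensor that inhibits mTORC1, rose by 0.95 (padj = 2.43e-06) and the stress protein NUPR1 by 0.93 (padj = 1.89e-03). VLDLR, a lipoprotein receptor, read 70.6, 68.4 and 71.0 CPM against 3.91, 24.1 and 35.6 CPM (1.45 ± 0.20, padj = 3.24e-05). The glycoprotein hormone STC2 was low in all wells, at 1.60 to 2.18 CPM against at most 1.72 CPM, and rose by 1.46 (padj = 3.40e-04). FGF21, a secreted hormone outside the list and chosen after its values were seen, rose by 1.39 from a DMSO median of 0.595 CPM (padj = 2.94e-03). FGF21 starts at chr19:48755524 on the plus strand, inside the promoter window shown above for FUT1, which lies on the minus strand. A link between the rises of these neighbours was not tested. For the list as a whole, leaving out a treated well left 22 or 23 of the 25 rises.

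**Figure D3:**
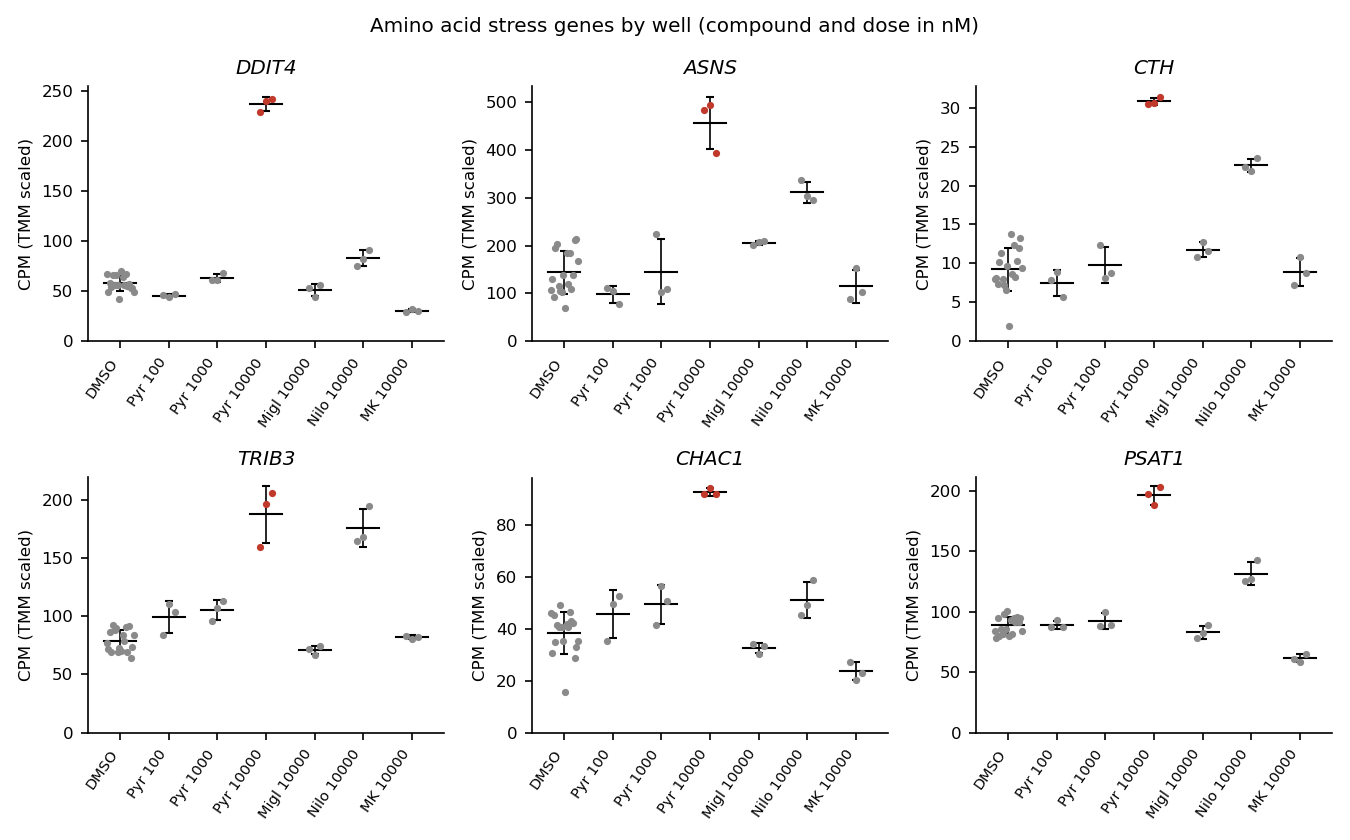
CPM (TMM scaled) of 6 amino acid stress genes in every well of DMSO, pyrazolanthrone (Pyr) at 100, 1000 and 10000 nM and miglitol (Migl), nilotinib (Nilo) and MK-2206 (MK) at 10000 nM; points are wells, lines the mean and bars 1 SD. The 3 red wells of pyrazolanthrone at 10000 nM lie above all DMSO wells in each panel, and the nilotinib wells have the next highest mean.

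No member of the JNK cascade rose, and 3 of 25 fell, against 3.35% and 4.3% of all genes. At an unadjusted p under 0.05 the counts were 2 up and 7 down, beside 4272 of all 18494 genes, and DESeq2 gave 0 up and 4 down. The falls were those of the scaffold MAPK8IP1 (-0.64, padj = 8.60e-03) and of the upstream kinases TNIK (-0.62, padj = 3.58e-04) and TAOK2 (-0.45, padj = 1.82e-02). The treated wells lay below every DMSO well for these 3 genes, as they did for 2.41% of all genes. TNIK, for example, read 10.8, 12.1 and 12.9 CPM against 15.3, 18.3 and 22.0 CPM. The fall of TAOK2 was lost when any treated well was left out, and that of MAPK8IP1 without replicate 1 or 2.

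The kinases that the compound targets did not pass. MAPK8, which encodes JNK1, read 61.4, 58.6 and 43.1 CPM against 23.2, 41.1 and 70.5 CPM (0.33 ± 0.27, padj = 0.465). MAPK9, which encodes JNK2, read 41.4, 41.9 and 38.1 CPM against 21.5, 38.3 and 52.4 CPM (0.08 ± 0.14, padj = 0.739). MAP2K4 read 50.8, 50.7 and 36.7 CPM against 18.1, 32.0 and 57.2 CPM (0.41 ± 0.27, padj = 0.362). All treated wells of the 3 genes lay within the DMSO range, and the sign of all 3 differences turned when the GC slope of the library was a covariate. That slope, the change of a library's log2 expression per 10 percentage points of GC, was -0.276 to -0.067 in the treated wells and -0.397 to 0.316 in the DMSO wells. MAPK10, which encodes the neuronal JNK3, had 6 counts in the treated and 78 in the DMSO wells in all and was not tested.

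Of 16 AP-1 factors, 2 fell and none rose, against 4.3% and 3.35% of all genes. The counts were 2 up and 5 down at an unadjusted p under 0.05 and 0 up and 3 down by DESeq2. JUN, at chr1:58776845-58784048, read 79.7, 84.4 and 75.1 CPM against 81.7, 128 and 236 CPM (-0.68 ± 0.19, padj = 2.82e-02). All 3 treated wells were low, though 1 of them was above the lowest DMSO well. MAF, a large bZIP factor, read 4.27, 3.34 and 3.87 CPM against 4.54, 6.04 and 19.5 CPM (-0.71 ± 0.21, padj = 3.93e-02). Both falls missed the threshold when any 1 of the treated wells was left out. The partners FOS, FOSL1, FOSL2, JUNB and JUND gave -0.01, 0.16, -0.14, 0.18 and -0.47 and did not pass. FOS read 11.3, 17.1 and 10.98 CPM in the treated wells and 7.96 to 15.7 CPM in the DMSO wells other than replicate 10, where it was 137 CPM. Among 20 AP-1 and matrix protease targets, 3 rose and 1 fell. The chemokine CXCL8 rose by 1.16 (padj = 3.40e-02), the urokinase PLAU by 0.67 (padj = 1.56e-02) and the stromelysin MMP3 by 0.66 (padj = 7.20e-03), and the protease inhibitor TIMP3 fell by 0.64. CXCL8 read 1.97, 2.44 and 1.73 CPM against 0.384 to 1.55 CPM in the DMSO wells other than replicate 10, which read 7.81 CPM, and its call was lost without any 1 treated well, with DESeq2 and with the GC slope as a covariate.

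Pyrazolanthrone is also known as a ligand of the aryl hydrocarbon receptor, which induces CYP1A1 and other genes of xenobiotic metabolism. Of 14 genes of that list tested, 2 rose and 1 fell, against 3.35% and 4.3% of all genes. CYP1A1 read 2.24, 2.64 and 2.74 CPM against 1.45, 2.19 and 3.91 CPM (0.20 ± 0.16, padj = 0.459), and the treated wells lay within the DMSO range. The repressor AHRR and the dimer partner ARNT gave -0.10 and 0.02 and did not pass. The rises were those of STC2, which also stands in the amino acid stress list, and of NQO1, a quinone reductase that the antioxidant list holds too. NQO1 read 249.6, 264 and 282 CPM against 117, 194 and 246 CPM (0.44 ± 0.12, padj = 2.67e-02). NEDD9, an adhesion scaffold, fell by 0.61 (padj = 9.61e-04). The receptor gene AHR had 12 counts in the treated and 64 in the DMSO wells in all, and CYP1B1 had 1 and 11, and neither was tested.

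**Figure D4:**
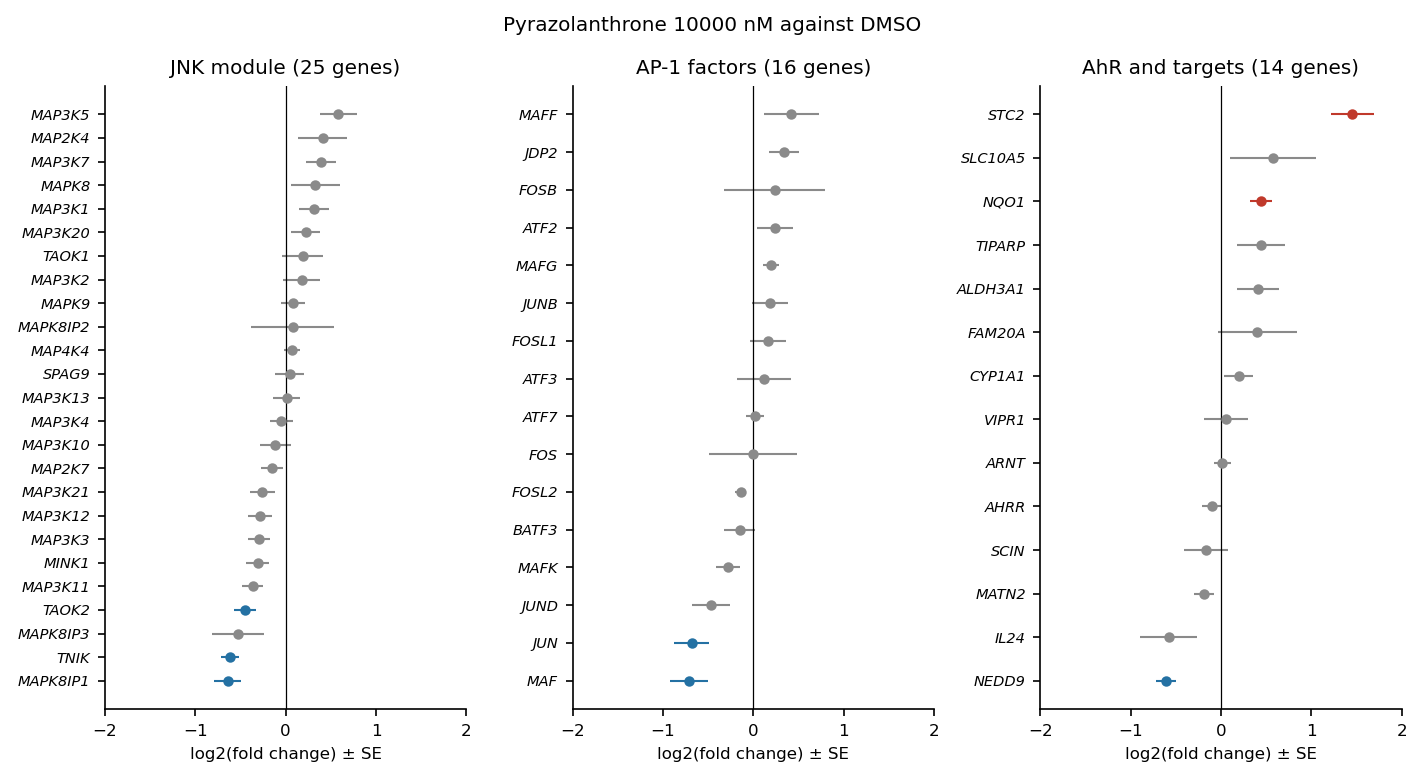
Points give the log2(Fold Change) of each tested member at 10000 nM against DMSO, and bars its approximate SE, for the JNK cascade, the AP-1 factors and the aryl hydrocarbon receptor (AhR) list. Red members rose, blue fell and grey did not pass; most members lie within 0.5 of 0 in each panel.

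Of the 32 immediate early and MAPK feedback genes, 11 rose and 2 fell, against 3.35% and 4.3% of all genes. The list's median log2(Fold Change) was 0.28, and against DMSO it was 0.24 at 1000 nM and 0.30 at 100 nM. None of the 32 passed at 1000 nM, and 8 were higher and 1 lower at 100 nM. Compared with 1000 nM directly, 2 were higher and 3 lower at 10000 nM, with a median of 0.07. Compared with miglitol at 10000 nM, 3 were higher and none lower. Set against nilotinib at that dose, 1 was higher and 9 lower, beside 0.993% and 3.43% of all genes. Set against MK-2206, 2 were higher and 3 lower, beside 1.19% and 2.32%. ETV5, a PEA3 family transcription factor induced by ERK signalling, read 227, 245 and 244 CPM against 55.5, 96.7 and 115 CPM (1.34 ± 0.13, padj = 4.97e-07). The groups did not overlap. Of the Sprouty and Spred inhibitors of this pathway, SPRY4 rose by 1.47 (padj = 4.83e-04), SPRY2 by 0.75 (padj = 1.80e-03) and SPRED2 by 0.49 (padj = 4.53e-03). SPRED1 did not pass (0.47, padj = 0.065), and SPRY1, with 0 counts in the treated and 13 in the DMSO wells, was not tested. The ERK phosphatase DUSP6 (0.64, padj = 0.132) and ETV4 (0.32, padj = 0.113) did not pass either. IL17RD, an inhibitor of FGF signalling chosen after its values were seen, read 26.1, 36.7 and 31.5 CPM against 8.94, 11.1 and 14.5 CPM (1.45 ± 0.12, padj = 1.62e-08). Beside the wells at 1000 nM, IL17RD was higher by 1.10 (padj = 2.00e-04), while the difference of SPRY4, 0.72, did not pass (padj = 0.228). IL17RD had a mean of 23.6 CPM with nilotinib and 34.2 CPM with MK-2206 at 10000 nM, and SPRY4 5.89 and 5.21 CPM. The differences of both genes between pyrazolanthrone and these compounds did not pass. The orphan nuclear receptors NR4A2 and NR4A3 rose by 1.32 and 0.61, and the ERK phosphatase DUSP5 by 0.75. The first-wave genes EGR1, FOS and MYC gave 0.08, -0.01 and 0.10 and did not pass. The JNK and p38 phosphatase DUSP8 fell by 1.17 (padj = 5.95e-04) and DUSP1, which also acts on JNK and p38, by 0.48 (padj = 8.50e-03). DUSP8 read 4.06, 3.72 and 4.25 CPM against 5.97 to 12.4 CPM in the DMSO wells other than replicate 10, which read 3.91 CPM.

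Other stress lists moved in part, beside 3.35% of all genes that rose and 4.3% that fell. Of 20 endoplasmic reticulum genes, 5 rose and none fell (6 and 1 at an unadjusted p under 0.05, 5 and 0 by DESeq2). XBP1, the transcription factor of the unfolded protein response, read 166, 177 and 173 CPM against 65.3, 83.6 and 99.1 CPM (1.01 ± 0.10, padj = 3.20e-07). HERPUD1, a component of the degradation machinery, rose by 0.78 (padj = 3.04e-06) and the chaperone HSPA5 by 0.49 (padj = 3.82e-02), and the HSPA5 call was lost without any 1 treated well. Of 24 p53 targets, 4 rose and none fell (8 and 1 at an unadjusted p under 0.05, 4 and 0 by DESeq2). The cytokine GDF15 had the largest rise, from a DMSO median of 0.709 CPM to 2.81, 2.66 and 3.36 CPM (2.00 ± 0.22, padj = 2.43e-06), and SESN2 is shared with the amino acid stress list. CDKN1A, MDM2 and BAX of the p53 list gave 0.14, 0.39 and -0.16 and did not pass (padj = 0.394, 0.134 and 0.440). Of 23 NRF2 antioxidant genes, 3 rose and 1 fell, and 2 of the 3 rises, SLC7A11 and NQO1, stand in other lists. TXNIP, a regulator of glucose uptake in the list of AKT and FOXO genes, read 22.7, 22.3 and 25.1 CPM against 7.80, 10.7 and 15.6 CPM (1.15 ± 0.12, padj = 1.35e-06). Of the 19 genes of that list 3 rose and 2 fell, the falls being the receptor tyrosine kinase ERBB3 (-0.83) and the transcriptional regulator CITED2 (-0.52).

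Cytosolic heat shock genes went the other way, with 4 of 18 lower and none higher (9 and 0 at an unadjusted p under 0.05, 6 and 0 by DESeq2). Over all genes, 4.3% fell and 3.35% rose. HSPB8, a small heat shock protein, read 30.6, 32.9 and 38.1 CPM against 51.9, 68.9 and 78.3 CPM (-0.99 ± 0.11, padj = 2.63e-06). HSPA1A and HSPA1B, which encode the inducible HSP70, fell by 0.88 (padj = 4.44e-04) and 0.75 (padj = 2.74e-04). These 2 genes are near-identical copies, so the division of reads between them is uncertain. FKBP4, a co-chaperone of steroid receptors, fell by 0.50. The treated wells lay below every DMSO well for all 4 genes, as they did for 2.41% of all genes.

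The 10 protein-coding genes with the largest falls are described next, with the microtubule list. MAP1A, a microtubule-associated protein at chr15:43510958-43531620, read 97.7, 88.3 and 122 CPM against 189.6, 254 and 396 CPM (-1.38 ± 0.19, padj = 4.18e-05). FLNC, an actin crosslinker of muscle, was the most abundant gene with a log2(Fold Change) below -1. It read 667, 897 and 771 CPM against 1500.2, 1896 and 2421 CPM (-1.31 ± 0.14, padj = 1.42e-06). Of 18 microtubule genes, 4 fell and 1 rose, against 4.3% and 3.35% of all genes. The falls were MAP1A, the tubulins TUBB3 (-0.89, padj = 1.65e-04) and TUBB4A (-0.87, padj = 1.41e-04) and TUBA4A (-0.63), and the rise was MAP2 (0.68). Of the largest falls, 3 encode G protein-coupled or chemokine receptors: the estrogen-binding GPER1 (-1.60, padj = 3.45e-06), the chemokine scavenger ACKR3 (-1.59, padj = 2.74e-04) and the orphan receptor GPRC5B (-1.36, padj = 4.08e-06). GPER1 read 2.45, 2.62 and 2.56 CPM against 5.36, 8.09 and 13.7 CPM, with no overlap. FSTL3, a secreted antagonist of activin, read 45.5, 46.5 and 44.2 CPM against 80.2, 113 and 150.4 CPM (-1.32 ± 0.17, padj = 1.59e-05). The RNA-binding CSDC2, the cytokine receptor IL22RA1, the GTPase RAB7B and the secreted C1QTNF2 fell by 1.36, 1.31, 1.25 and 1.25.

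WNT ligands were examined after their values were seen. Of 13 tested, 5 fell (WNT7B, WNT9A, WNT11, WNT10B and WNT5B) and none rose, a set picked for these values, against 4.3% and 3.35% of all genes. WNT7B read 1.16, 1.26 and 0.922 CPM against 2.88, 3.81 and 5.68 CPM (-1.78 ± 0.18, padj = 7.81e-07), with no overlap. WNT10B fell by 0.81 (padj = 7.65e-05) and WNT5B by 0.69 (padj = 6.01e-03). WNT5A, the most abundant ligand at a DMSO median of 18.3 CPM, gave -0.05 (padj = 0.813). Of the WNT target genes, the feedback inhibitor AXIN2 had the lowest adjusted p and did not pass (-0.35, padj = 0.0577).

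**Figure D5:**
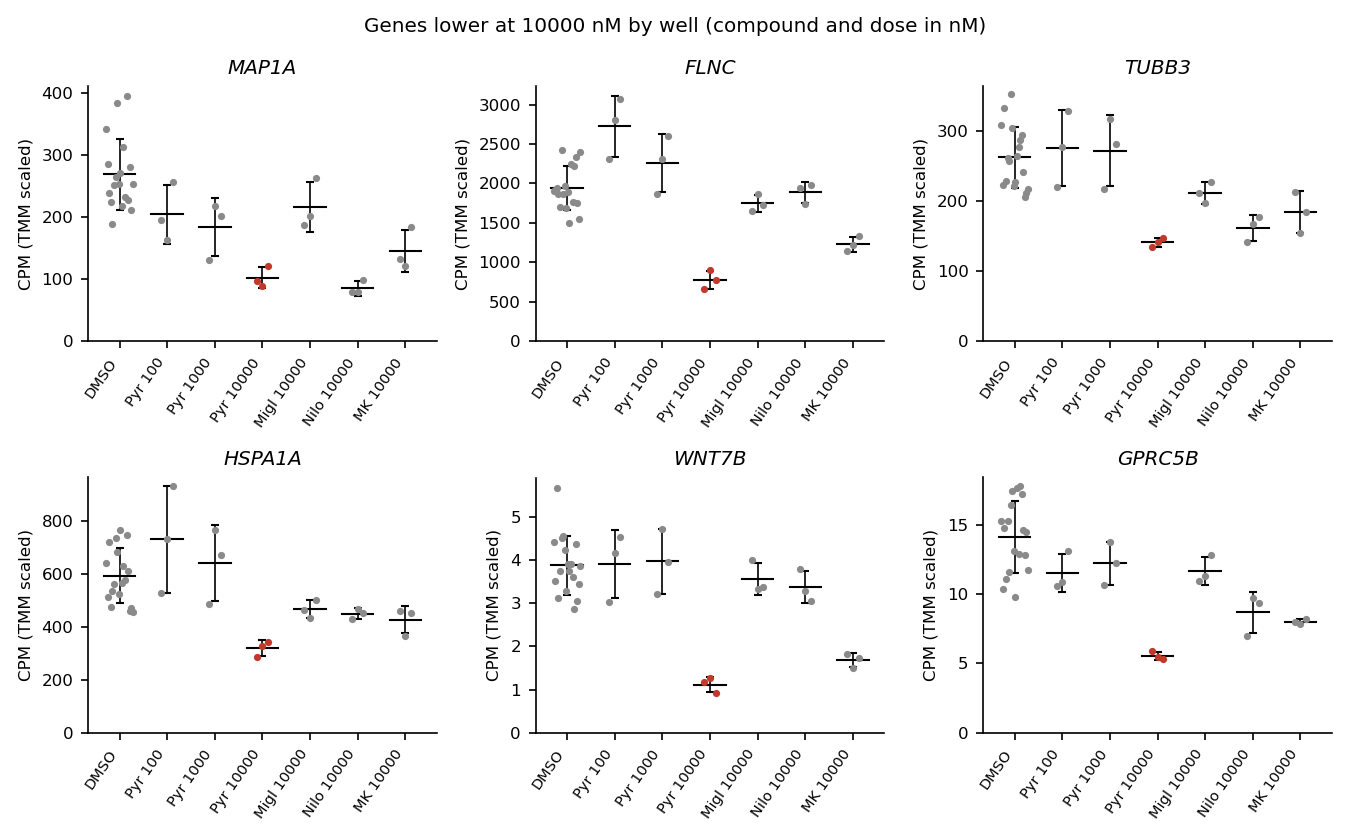
CPM (TMM scaled) of 6 genes that fell at 10000 nM, in every well of DMSO, pyrazolanthrone (Pyr) at 3 doses and miglitol (Migl), nilotinib (Nilo) and MK-2206 (MK) at 10000 nM; points are wells, lines the mean and bars 1 SD. The red wells lie below all DMSO wells in each panel. So do the nilotinib wells for MAP1A, TUBB3 and GPRC5B, and the MK-2206 wells for MAP1A, FLNC, WNT7B and GPRC5B. The nilotinib wells are as low as the red wells for MAP1A, and not for FLNC or WNT7B.

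The remaining lists held few calls. Over all genes, 3.35% rose and 4.3% fell, and the calls among mitosis and matrix genes were near these shares. An unadjusted p under 0.05 was found for 4272 of all 18494 genes. Of 47 replication and G1/S genes, 6 fell and 1 rose, led by the factor E2F1 (-0.52, padj = 1.60e-02), UHRF1 (-0.49) and TK1 (-0.40). This count was unstable, at 13 falls with DESeq2 and 22 at an unadjusted p under 0.05. Of 43 mitosis genes, CCNB2 (0.54) and AURKA (0.42) rose and none fell, with 12 and 0 at an unadjusted p under 0.05 and 2 and 0 by DESeq2. CDC20 and CCNF, which the study names for cell cycle compounds, gave -0.19 (padj = 0.329) and -0.10 (padj = 0.524) and did not pass, and the sign of CCNF turned with the GC slope as a covariate. In sterol and fatty acid synthesis, 5 of 31 fell and none rose (8 and 0 at an unadjusted p under 0.05, 5 and 0 by DESeq2), with LSS at -0.62, FASN at -0.54 and DHCR7 at -0.50. The YAP target CCN2, a matricellular protein, read 418, 541 and 407 CPM against 137, 205 and 282 CPM (1.17 ± 0.18, padj = 1.04e-04), but 2 of 21 members of its list rose and 1 fell. In the hypoxia list VEGFA rose by 0.66 and SLC2A3 by 0.92, while PFKFB4 fell by 0.44, in all 2 up and 3 down of 25. The sensitizer HRK (0.91) and the survival factor MCL1 (0.49) rose among 16 BCL2 family genes, and PER2 (0.74) and BHLHE40 (0.33) among 19 clock genes. Of 17 NF-kB targets 3 rose, with CCL20 at 1.86, IL1A at 1.12 and TNFAIP2 at 0.62, and CCL20 and IL1A stayed below 1.2 CPM in every treated well. PMEPA1 (0.53) was the 1 call of 19 TGF-beta genes, TNC (-0.37) the 1 call of 23 matrix genes, and H1-4 (-0.83) and H2BC4 (-0.67) fell among 14 histone genes, whose RNAs mostly lack the poly(A) tail used for selection.

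Lower doses of pyrazolanthrone were set beside these values. At 1000 nM, 0 of 18469 genes (0%) passed against the same 18 DMSO wells with edgeR, with 1033 genes at an unadjusted p under 0.05, a lowest padj of 0.469 and 4 genes changed by DESeq2. DDIT4 read 60.7, 61.1 and 68.0 CPM at 1000 nM, within the DMSO range, and its log2(Fold Change) there was 0.15. Compared with 1000 nM directly, the wells at 10000 nM had 74 genes higher (0.381%) and 68 lower (0.35%) of 19438 (0.731% in all), and DDIT4 was higher by 1.89 ± 0.13 (padj = 9.60e-14). In that comparison 14 of the 28 amino acid stress genes passed, all of them higher at 10000 nM (of all genes, 1.14% were higher and 1.79% lower, 2.93% together). ASNS read 224, 102 and 109.7 CPM at 1000 nM, so that 1 of the 3 wells was above the DMSO range. It was still higher by 1.64 at 10000 nM (padj = 6.69e-03). The GC slope of these wells at 1000 nM was -0.198, 0.299 and 0.261, in the same order, against -0.276 to -0.067 at 10000 nM. It was not a covariate in the comparison of the doses, and its part in the differences was not tested. At 100 nM, 878 genes passed (4.77%), 3.2% higher and 1.56% lower, with 0.342% higher and 0.581% lower past a log2(Fold Change) of 1 or -1 (0.923%). The median of the amino acid stress genes was 0.13. The 3 wells at 100 nM had inferred fragment lengths of 150.6 to 154.8 bases. The DMSO median was 189 bases and the DMSO range, 143.8 to 217.3 bases, included these values. With fragment length as a covariate 0 genes were changed at 100 nM, against 170 without it. The number was 15 without replicate 2, 31 without replicate 3 and 316 without replicate 1. At 10000 nM the fragment lengths were 181 to 202 bases, and the same covariate gave 138 genes higher and 117 lower.

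Miglitol, nilotinib and MK-2206 were tested at the same dose and time. Miglitol inhibits intestinal alpha-glucosidases, nilotinib BCR-ABL and other tyrosine kinases, and MK-2206 the AKT kinases. These comparisons and that with 1000 nM share the 3 treated wells and contrast them with no DMSO well, although the DMSO wells enter the shared estimate of the spread. The comparisons of the 3 pyrazolanthrone doses with DMSO share the DMSO wells. Against miglitol, pyrazolanthrone had 68 genes higher (0.35%) and 34 lower (0.175%) of 19438, and 19 of the 28 amino acid stress genes were higher and none lower, against 0.988% and 0.731% of all genes (1.72% together, and 0.525% with the fold threshold). DDIT4 read 53.2, 44.5 and 56.3 CPM with miglitol, and the difference was 2.18 ± 0.14 (padj = 6.17e-16). ASNS read 201, 206 and 209 CPM with miglitol, within the DMSO range, and its difference of 1.12 ± 0.37 did not pass (padj = 0.135). FUT1, ETV5 and XBP1 were higher than with miglitol by 1.99, 1.12 and 0.88, and FLNC, WNT7B and MAP1A lower by 1.20, 1.70 and 1.11, all of them past the threshold. The lists named next held fewer calls against miglitol, with 3 control wells, than against DMSO, with 18. Fewer control wells can lower such counts by themselves. The list medians were -0.29 against miglitol and -0.21 against DMSO for heat shock genes, and -0.17 and -0.07 for sterol and fatty acid genes. They were 0.03 and 0.20 for endoplasmic reticulum genes, 0.04 and -0.18 for microtubule genes and 0.02 and 0.24 for mitosis genes. Among 20 endoplasmic reticulum genes 2 were higher and none lower. Among 18 heat shock and 18 microtubule genes 1 each was lower and none higher. No sterol and fatty acid gene of 31 and no mitosis gene of 43 passed. JUN gave -0.45 and did not pass (padj = 0.476), with the miglitol wells at 103 to 115 CPM. The mitochondrial share with miglitol was 0.281% to 0.354%.

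Nilotinib differed most from pyrazolanthrone in number, with 339 genes lower with pyrazolanthrone (1.74%) and 35 higher (0.18%), 1.92% together. CXCL8 read 375, 276 and 204 CPM with nilotinib and at most 2.44 CPM with pyrazolanthrone, a difference of -7.10 (padj = 3.16e-16). In the amino acid stress list 3 of 28 were higher with pyrazolanthrone and none lower, against 0.993% and 3.43% of all genes (4.42% together). These were DDIT4 by 1.54 (padj = 7.04e-12), CHAC1 by 0.88 (padj = 3.95e-03) and PSAT1 by 0.60 (padj = 5.71e-06). TRIB3 read 165, 168 and 195 CPM with nilotinib, overlapping the pyrazolanthrone wells, and the difference was 0.11 ± 0.14 (padj = 0.978). ASNS read 336, 303 and 295 CPM with nilotinib, below the pyrazolanthrone wells and above the DMSO wells, and the difference of 0.57 ± 0.37 did not pass (padj = 0.677). XBP1 with nilotinib, at 165 to 174 CPM, also overlapped, with a difference of 0.04 ± 0.12. FUT1 was higher with pyrazolanthrone by 1.76 (padj = 5.46e-07), and JUN lower by 1.21 (padj = 1.39e-04), with the nilotinib wells at 179 to 199 CPM. A p that misses the threshold does not show that the compounds act alike.

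Against MK-2206, pyrazolanthrone had 90 genes higher (0.463%) and 147 lower (0.756%), 1.22% together. Of the amino acid stress genes 20 of 28 were higher and none lower, against 1.19% and 2.32% of all genes (3.51% together). DDIT4 read 29.3, 32.1 and 30.3 CPM with MK-2206, below every DMSO well, and the difference of 2.92 ± 0.14 (padj = 1.73e-20) was the largest of the comparisons made for this gene. PSAT1 and CHAC1 with MK-2206 differed by 1.64 and 1.94. FLNC was lower with pyrazolanthrone by 0.69 (padj = 2.08e-02), and CCN2 did not pass (-0.31, padj = 0.490), with both compounds above the DMSO range. WNT7B read 1.82, 1.51 and 1.74 CPM with MK-2206, also below every DMSO well, and its difference of -0.62 did not pass (padj = 0.168).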

How the data were processed

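Population RNA-seq of 72 wells of U2OS cells was used, of which 36 entered the comparisons reported. Groups, doses and replicate numbers came from the sample labels. The authors prepared poly(A)-selected stranded TruSeq libraries and ran a standard RSEM workflow, and the submitters' processing notes name GRCh38, RSEM, HTSeq and DESeq2 without a role. Versions, the aligner and the annotation release are not given in the sources used here. The authors deposited expected counts per gene, which RSEM estimates and which carry fractions and no scaling, beside TPM and FPKM, which RSEM corrects for transcript length and sequencing depth. TPM was used for marker levels, FPKM for one alternative, and the deposited effective lengths for an inferred fragment length per library. Of 60371 genes listed, 56104 had a symbol and position in GENCODE release 44.

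After rounding of the expected counts, tests were run with edgeR 4.0.16 under R 4.3.3 (TMM normalization, filterByExpr with a smallest count of 10, glmQLFit, glmQLFTest, Benjamini-Hochberg adjustment). The comparisons with DMSO used the wells compared, and those with the lower dose and other compounds came from one fit over 54 wells. The SE is the log2 fold change divided by the root of F. CPM used TMM factors over the same 54 wells. Permutation tests were exact (scipy 1.17.1, Python 3.11.15). For the GC slope, each library's log2(CPM + 1) as a deviation from the mean of all wells was regressed on the GC content of protein-coding genes, per 10 percentage points. The scripts were tested on simulated counts. The members and gene lists were chosen with earlier results of these data known. Named genes were MAPK8, MAPK9, MAPK10 and MAP2K4, the 10 protein-coding genes with the largest rises and falls (padj under 0.05, log2 fold change over 1 or under -1, at least 5 CPM in the higher group, every treated well on 1 side of the DMSO median) and the 2 largest of other biotypes, all calls among AP-1 and aryl hydrocarbon receptor genes, up to 3 calls of each other list (or its lowest adjusted p), CDC20 and CCNF. Other list members are named with their list, and FGF21, IL17RD and the WNT ligands were chosen after their values were seen. Alternatives covered scaling (RLE, library sizes), DESeq2 1.42.0, the count filter, left-out wells and a replicate block. For the comparisons with DMSO they also covered larger fits, and fragment length or GC slope as covariates. The deposited counts of replicate wells differed beyond sampling noise in every pair of wells within a group. Replicate numbers were not taken to pair wells.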

Additional observations from a re-analysis of the deposited data

How the results depend on the processing

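Among 79 named genes that passed, 79 passed again with RLE scaling, without DMSO replicate 10 and with fragment length as a covariate, and 53, 50 and 57 without pyrazolanthrone replicates 1, 2 and 3. No direction changed where a value was had, which was for all 79 except with DESeq2 (77) and 10 expected counts in every well (46). With the GC slope as a covariate the values of MAPK9, MAP2K4, MAPK8 and CCNF, which had not passed, turned to -0.098, -1.93e-05, -0.075 and 0.046. Without 1 treated well or DMSO replicate 10, the only DMSO well left out, 91 to 115 genes were higher and 52 to 115 lower at 10000 nM, and DESeq2 gave 85 and 115. Requiring 10 expected counts in every well, which DMSO replicate 10 limits to 7778 genes, left 16 genes higher and 10 lower, 5 changed at 100 nM, 19 against 1000 nM, 21 against miglitol, 65 against nilotinib and 53 against MK-2206. At 1000 nM, DESeq2 gave 4 genes changed, the fit over 72 wells 1 and left-out wells 0 to 1. At 100 nM, left-out wells gave 15 to 316, and fragment length as a covariate 0. Left-out wells gave 72 to 263 genes against 1000 nM. The difference in genes detected, 778 more in treated wells, was 148 without DMSO replicate 10 and -27.2 at an FPKM of at least 1. The causes were not tested.

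Correlations of same-numbered treated and DMSO wells were -0.41, 0.08 and 0.24. They were 0.58, -0.18 and 0.70 with 1000 nM, -0.18, 0.19 and 0.47 with miglitol, 0.63, 0.05 and 0.67 with nilotinib and -0.44, 0.28 and 0.37 with MK-2206. Wells 1 and 3 set against each other gave -0.63 and -0.66 with 1000 nM and -0.70 and -0.60 with nilotinib. Treated well 3 and well 2 at 1000 nM gave 0.47. Each comparison had a same-numbered pair under 0.1, so numbers were not taken to pair wells in the main fit. The correlations are of deviations from a group mean and depend on one another, so they do not settle whether numbers pair wells. A replicate block, fitted on the wells numbered 1 to 3 alone, gave 551 genes higher and 373 lower against DMSO, 10 changed at 100 nM, 235 against miglitol and 130 against MK-2206, and 25 amino acid stress genes rose in it too.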

Other observations

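Outside the lists and protein-coding genes, the named rises were those of DLGAP1-AS2, a long noncoding RNA antisense to DLGAP1, at 20.95, 20.1 and 17.5 CPM against a DMSO range of 4.29 to 11.7 CPM (log2(Fold Change) 1.41, edgeR padj = 1.49e-05), and of the transcript ENSG00000256594 (1.26, padj = 1.89e-06). The libraries were stranded, and whether the counting used strand is not given in the sources used here. The named falls were those of ENSG00000269900 (-2.62, padj = 2.24e-02), whose wells overlapped and ranged from 0 to 20.8 CPM in DMSO, and ENSG00000278309 (-1.20, padj = 5.32e-04).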
